A study of Mus musculus with 4 samples.

Results

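The genes of epithelial cell junctions and apical polarity were examined in airway epithelial cells from allergen-exposed mice given an inhibitor of stearoyl-CoA desaturase 1 (SCD1) or its vehicle. The set was a list of 31 gene symbols, all 31 of which were found among the 25124 symbols of the table. It held 13 membrane proteins of the tight junction, 5 proteins of its cytoplasmic plaque, 2 polarity proteins, 4 proteins of the adherens junction and 7 of the desmosome. All cells were isolated from lung by fluorescence-activated sorting from wild-type C57BL/6 mice, and every mouse group had house dust mite (HDM) sensitisation, HDM being an inhaled allergen that provokes allergic airway inflammation. One group (2 samples) received HDM with DMSO, the solvent dimethyl sulfoxide, and the other (2 samples) HDM with the SCD1 inhibitor. SCD1 introduces the double bond that turns saturated into monounsaturated fatty acids. The compound, its dose and route, the age and sex of the mice, the sorting markers and the number of mice behind each sample are not stated in the labels. The samples are therefore not known to be separate animals, and the p-values measure only the spread between these 4 libraries, which may be technical. Mice without HDM were not analysed here.

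Neighbouring epithelial cells are held together by 3 kinds of contact. The tight junction lies nearest the lumen, where claudins, occludin and related proteins seal the space between cells and are tied to actin by plaque scaffolds. Below it, the adherens junction joins cells through E-cadherin and the catenins, and desmosomes anchor intermediate filaments through desmosomal cadherins, plakoglobin, plakophilins and desmoplakin. Polarity complexes of the Par and Crumbs families place these contacts at the border between apical and basolateral membrane. In the airway this barrier is what inhaled allergen meets first, and disruption of it is a known feature of allergic airway disease.

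The libraries held 24591122 to 27013663 reads assigned to genes. A value below is a read count divided by the size factor of its library, called normalised reads. Epithelial markers were abundant in every library, with a summed level of 136574 to 136958 normalised reads over 10 markers with DMSO and 141934 to 149446 with the inhibitor. The most abundant of them, Cd24a, had 49772 and 49403 with DMSO and 58202.5 and 62523 with the inhibitor. Of the 10 markers, 5 had a positive log2 fold change (inhibitor minus DMSO) and 5 a negative one. Beside airway markers such as the club cell gene Scgb1a1, with 163459 to 332447 normalised reads, the alveolar type 2 gene Sftpc was abundant, with 100831 to 191501. Endothelial markers were highest in DMSO replicate 2, with a sum over 12 markers of 17364 against 5230.2 in DMSO replicate 1 and 5985 and 8401 with the inhibitor. In bulk samples, fewer cells of a type and less RNA per cell cannot be told apart.

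None of the 31 genes passed the test between inhibitor and DMSO. Of 31 members, all above the floor for testing, 0 were called higher and 0 lower at a Benjamini-Hochberg adjusted p under 0.05 with limma, which called 1.79% of all 13800 tested genes, 1.36% higher and 0.428% lower. At an unadjusted p under 0.05 there were 4 members, Tjp1, Jup, Dsc2 and Magi1, where the share among all tested genes was 14.1%. DESeq2 on the recovered reads called Tjp1 higher and Jup lower, and of all 17207 genes fitted it called 339 higher and 146 lower. With edgeR 0 members were called, and of all 15299 genes fitted only 7 were called higher and 3 lower. The log2 fold changes of the members (inhibitor minus DMSO, on the scale log2(value + 26.1)) centred on a median of -0.073, beside 0.0056 over all genes tested. There were 12 positive and 19 negative values. In 15 members (48.4%) inhibitor and DMSO libraries did not overlap, near the 44.9% seen over all tested genes. Of these members 4 lay higher and 11 lower with the inhibitor, where 22.7% and 22.2% of all tested genes did so. For 16 members and for 2963 of the 13800 tested genes the 95% interval of the log2 fold change lay wholly between -0.5 and 0.5. The intervals of the other 15 members were wider or reached further from 0. The members were more abundant than the typical tested gene, with a median over genes of 2771 normalised reads against 747, and their median standard error on the log2 scale was 0.14 against 0.24. An exact permutation test of 2 against 2 libraries cannot give a two-sided p below 0.333, so the tests below are limma's, which share the spread across genes.

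**Figure D1:**
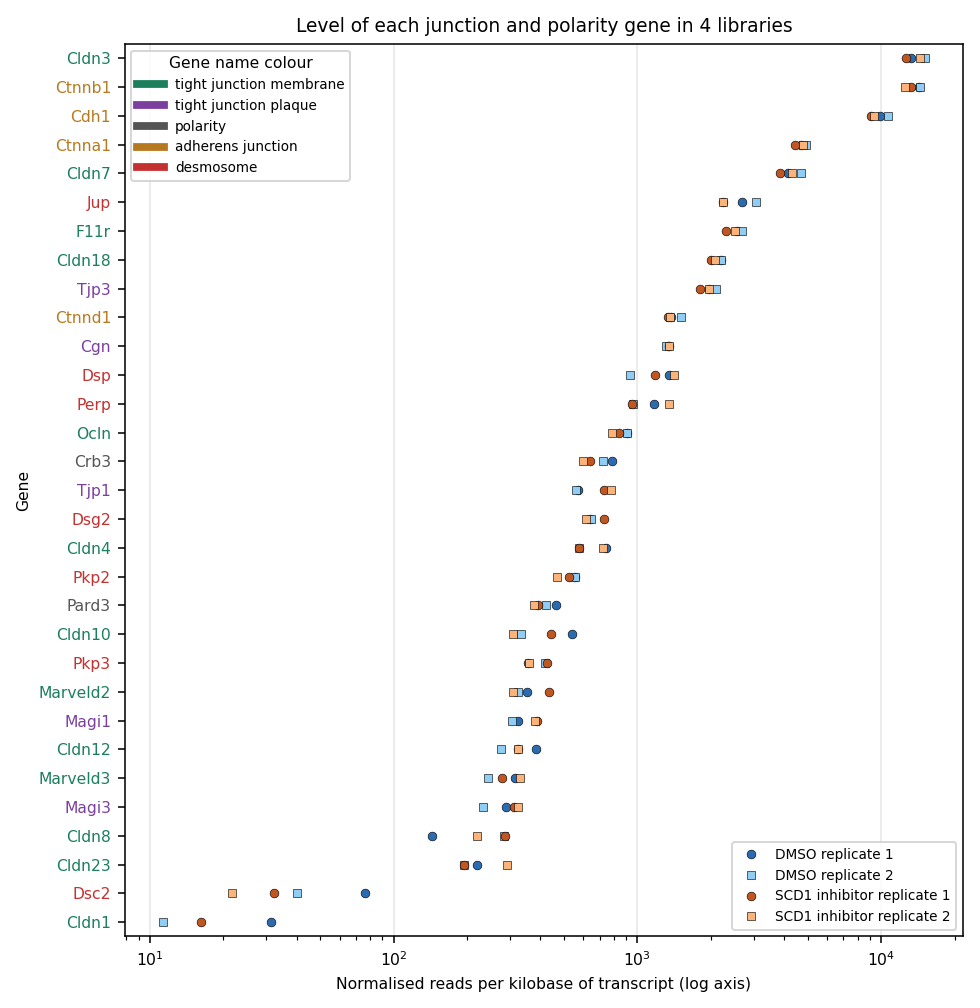
Level of each of the 31 genes in normalised reads per kilobase of its longest coding transcript (log axis), 1 point per library, genes ordered by their mean over 4 libraries. Levels run over 3 orders of magnitude, from Cldn3 and Ctnnb1 at the top to Dsc2 and Cldn1 at the bottom; the value of 0 of Cldn1 in SCD1 inhibitor replicate 2 cannot be drawn.

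The levels themselves, compared between genes per kilobase of transcript, put a claudin and the core of the adherens junction first. With DMSO, Cldn3 had 14190.5 and Ctnnb1 14324 normalised reads per kilobase, followed by Cdh1 with 10276, Ctnna1 with 4794 and Cldn7 with 4428. With the inhibitor the same genes had 13491, 12918, 9228, 4601 and 4070.1. Cldn3 and Ctnnb1 exchanged places between the groups and their ranges overlapped, as did those of Ctnna1 and Cldn7. At the other end, Dsc2 had 58.3 and 27.0 and Cldn1 21.4 and 8.09 normalised reads per kilobase with DMSO and the inhibitor.

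Claudins set the permeability of the tight junction, and the 9 claudins of the list differed far more from each other than between the groups. As a share of the summed claudin level per kilobase, Cldn3 took 61.1% to 63.8% in the 4 libraries, Cldn7 19.0% to 19.8% and Cldn18 9.17% to 10.2%. The next, Cldn4, took 2.43% to 3.44%. Cldn3 overlaps an exon of Wbscr25 on the other strand, and whether counting used the strand is not given, so its reads are uncertain to that extent. Cldn3 and Cldn7 are claudins of most simple epithelia, while Cldn18 has a lung form that is prominent in alveolar epithelium.

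Cldn3 had 16667 and 19064 normalised reads with DMSO and 15874 and 18096 with the inhibitor. Each group spanned a wider range than the gap between their means, and the log2 fold change was -0.073 with a 95% interval from -0.32 to 0.17. Cldn7 had 5542 and 6281 with DMSO and 5143 and 5725 with the inhibitor, again with overlap, at -0.12 (interval -0.38 to 0.14) and at 0.019 after the correction for transcript GC content that is described with that content below. Cldn18 had 9209 and 9161 with DMSO and 8349 and 8649 with the inhibitor. Both inhibitor libraries lay below both DMSO libraries, by a log2 fold change of -0.11 (interval -0.34 to 0.12, limma adjusted p = 0.698). It was the 1 claudin of 9 (11.1%) whose groups did not overlap, beside 44.9% of all tested genes. Alveolar type 2 markers, summed over 12 genes, were 443613 and 500726 with DMSO and 350512 and 289792 with the inhibitor, and alveolar type 1 markers, over 10 genes, 26569 and 29505 against 24611 and 25830. The part of alveolar cells in the values of Cldn18 was not tested.

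Among the other claudins the replicates disagreed more. Cldn4, which restricts sodium passage, had 1354 and 1048 with DMSO and 1043 and 1311 with the inhibitor, so that each group held a high and a low library. Cldn10, a paracellular ion channel that is also known from club cells, had 1149 and 706 against 940.2 and 659.8, with overlap. Cldn8 had 338 and 669 against 674 and 518, and DMSO replicate 1 was the low library. Cldn12 had 1443 and 1033 against 1214 and 1213, with both inhibitor libraries inside the DMSO range. Cldn23 had 405 and 359 against 358 and 539, where only SCD1 inhibitor replicate 2 was high. The sign of the log2 fold change turned in Cldn3, Cldn4, Cldn8, Cldn10, Cldn12 and Cldn23 when single libraries were left out.

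Cldn1, a sealing claudin of the airway, was close to the lower limit of measurement. It had 102 and 36.7 normalised reads with DMSO and 52.6 and 0 with the inhibitor, and a count of 0 allows up to 3 reads in that library. Its log2 fold change of -0.99 had an interval from -2.49 to 0.52, so neither a fall of several fold nor a modest rise was outside it. It ran from -1.78 to -0.19 with single libraries left out, and from -1.81 to -0.42 between a smaller and a larger pseudocount. Basal cell markers, summed over 8 genes, were 5731 and 4216 with DMSO and 1057 and 3340.1 with the inhibitor, and the part of basal cells in the values of Cldn1 was not tested.

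Of the membrane partners of the claudins 0 passed the test. Occludin, Ocln, which strengthens the junction and takes part in its signalling, had 3675 and 3661 normalised reads with DMSO and 3418 and 3191 with the inhibitor. Its DMSO libraries nearly coincided and both inhibitor libraries lay below them, at a log2 fold change of -0.15 (interval -0.42 to 0.12, adjusted p = 0.648). After GC correction it was -0.41 (adjusted p = 0.225). F11r, the junctional adhesion molecule JAM-A, had 6476 and 6761 against 5805 and 6337. These groups did not overlap either, with a log2 fold change of -0.13 (interval -0.37 to 0.12). Marveld2, or tricellulin, which seals the points where 3 cells meet, had 1097 and 1005 against 1355 and 961. Its relative Marveld3 had 769 and 597 against 682 and 806. In both of these genes the groups overlapped, and the sign of the fold change turned when 1 library was left out. Over the 13 membrane proteins of the tight junction 4 values were positive and 9 negative, at a median log2 fold change of -0.073, or -0.019 after GC correction.

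**Figure D2:**
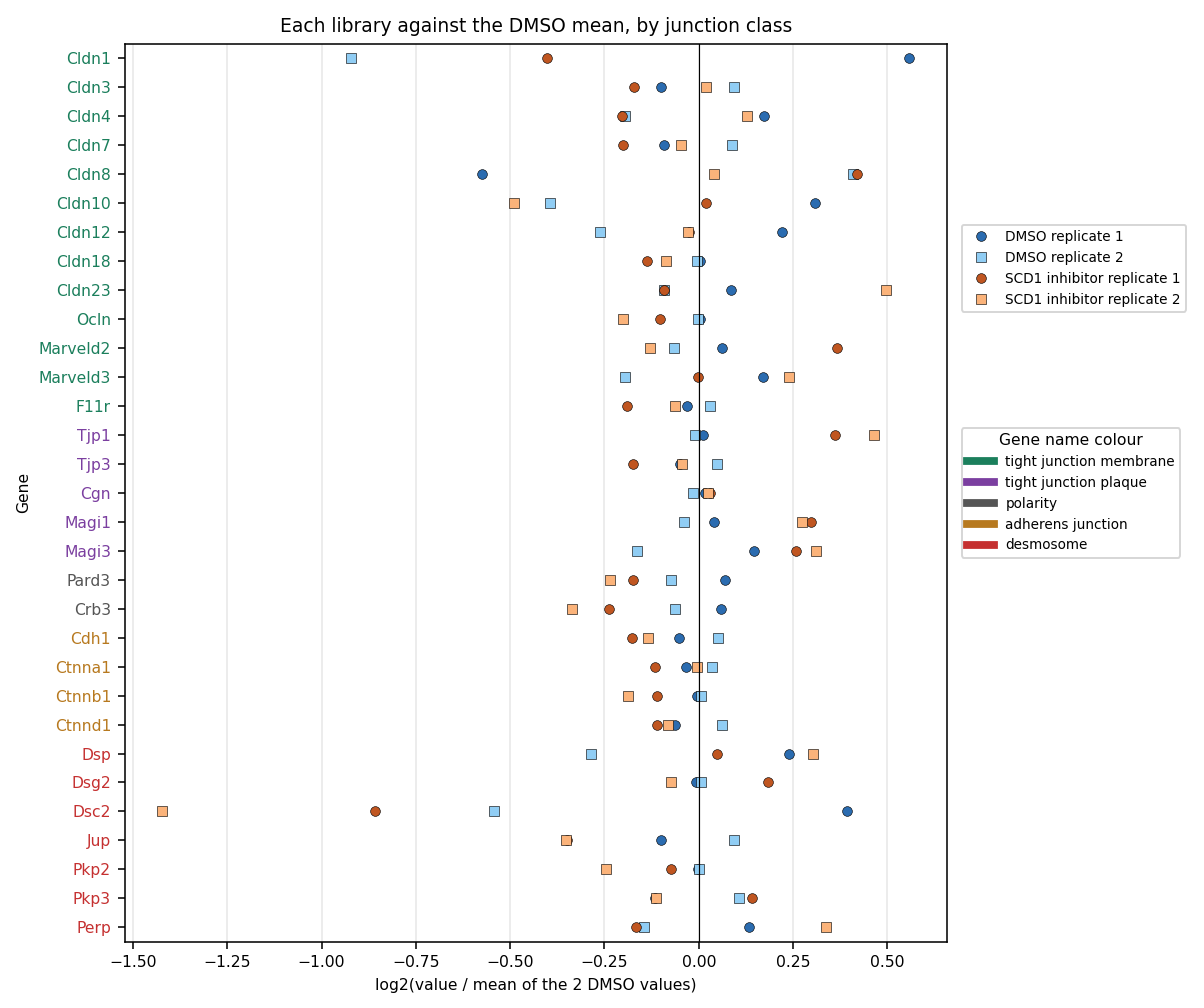
Each library against the mean of the DMSO pair for every gene, as log2 of the ratio without a pseudocount, grouped by class. Both inhibitor libraries lie to the right of both DMSO libraries for 4 genes, among them Tjp1, Magi1 and Magi3. They lie to the left for 11 genes, among them Jup, Dsc2, Pard3, Crb3 and Cdh1. Among all tested genes 22.7% lay higher and 22.2% lower without overlap. The value of 0 of Cldn1 in SCD1 inhibitor replicate 2 is not drawn.

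The plaque of the tight junction held the highest log2 fold change of the 31 genes. Tjp1 encodes ZO-1, the scaffold that links claudins and occludin to actin, and lies on chromosome 7 at 65296165 to 65527781, minus strand (mm10). It had 4014 and 3956 normalised reads with DMSO and 5122 and 5502 with the inhibitor. The DMSO libraries differed by little and both inhibitor libraries lay well above them. The means were 3985 ± 40.7 and 5312 ± 269 (SD, n = 2 each). The log2 fold change was 0.41 ± 0.12 (SE), 1.33-fold, with an interval from 0.16 to 0.67, short of the threshold in limma (adjusted p = 0.114). With DESeq2 it passed, at 0.41 (adjusted p = 0.0244). With edgeR it did not, at 0.40 (adjusted p = 0.209). The value lay between 0.36 and 0.46 whichever library was left out, with adjusted p from 0.0522 to 0.827.

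Tjp3 (ZO-3) is a scaffold related to ZO-1. It had 5939.7 and 6363 with DMSO and 5452 and 5964 with the inhibitor, a log2 fold change of -0.11 (interval -0.36 to 0.14) that was 0.031 after GC correction. Tjp3 shares exon sequence with Apba3 on the other strand. Within each library, which removes its scaling, the ratio of Tjp1 to Tjp3 was 0.676 and 0.622 with DMSO and 0.939 and 0.923 with the inhibitor. This ratio was chosen after the values were seen, and it is a description of these libraries. It does not remove the relation to GC content described below. Transcript GC content was 46.84% for Tjp1 and 60.75% for Tjp3, and the log2 fold change of Tjp1 was 0.33 after GC correction.

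Magi1 and Magi3 encode inverted MAGUK scaffolds of the junctional plaque. Magi1, on chromosome 6, had 2566 and 2429 normalised reads with DMSO and 3072 and 3017 with the inhibitor, and Magi3, on chromosome 3, had 1922 and 1550.0 against 2075 and 2152. Neither gene's groups overlapped. Their log2 fold changes were 0.28 ± 0.13 and 0.29 ± 0.16 (SE; limma adjusted p = 0.355 and 0.451), and that of Magi3 was 0.14 without DMSO replicate 2. Cgn, or cingulin, which connects ZO-1 to the actomyosin ring, had 6711 and 6563 against 6776 and 6755. Its groups did not overlap, but the log2 fold change was only 0.028, and its interval of -0.21 to 0.26 lay close around 0. The median of the 5 plaque genes was 0.28, and 4 of them lay above DMSO without overlap, where 22.7% of all tested genes did so. Without DMSO replicate 2 the median was 0.14.

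The upstream sequences of Tjp1, Magi3 and Jup are shown, members with values on opposite sides of DMSO. Each has a single start site in the promoter table (RefSeq, GRCm38.p6). They were picked after their values were seen, and Magi3 ranked only 27 of the 31 genes per kilobase. Cgn, which also has a single start site and lay above DMSO at a log2 fold change of 0.028, is not shown. Tjp1 and Magi3 lay above DMSO and Jup, described with the desmosome, below. Cldn1, whose log2 fold change was further from 0 but which was sparse, is not shown. Each run is the 250 bases before the annotated start, 5′ to 3′ on the strand of the gene, in lower case. The Tjp1 window lies inside the gene span given above, before a RefSeq start that is not the outermost start of that span. Capitals mark the GC box letters CCGCCC or their complement GGGCGG, the core that factors of the Sp and Klf families are known to bind.
Tjp1, chr7:65371245-65371494, minus strand: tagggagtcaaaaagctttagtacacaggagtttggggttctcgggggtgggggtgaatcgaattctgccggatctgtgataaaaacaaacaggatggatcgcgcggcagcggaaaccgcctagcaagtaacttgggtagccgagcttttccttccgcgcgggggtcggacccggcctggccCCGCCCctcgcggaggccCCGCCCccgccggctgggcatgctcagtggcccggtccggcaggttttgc
Magi3, chr3:104220407-104220656, minus strand: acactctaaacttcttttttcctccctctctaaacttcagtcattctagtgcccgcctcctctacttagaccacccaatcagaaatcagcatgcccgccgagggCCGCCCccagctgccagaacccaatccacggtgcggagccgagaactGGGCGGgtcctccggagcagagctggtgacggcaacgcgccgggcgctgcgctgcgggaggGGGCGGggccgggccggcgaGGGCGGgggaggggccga
Jup, chr11:100397791-100398040, minus strand: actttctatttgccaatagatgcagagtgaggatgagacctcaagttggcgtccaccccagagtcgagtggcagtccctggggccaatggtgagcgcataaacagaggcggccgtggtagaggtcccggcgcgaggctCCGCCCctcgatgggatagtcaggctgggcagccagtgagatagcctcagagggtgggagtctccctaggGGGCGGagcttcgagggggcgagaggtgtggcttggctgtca
All 3 windows held the motif, 2 times in Tjp1, 4 times in Magi3 and 2 times in Jup. A link between the motif and the direction of the values was not tested. Of 32851 promoter windows of that length, 32.7% held it on either strand, and 23 of 34 windows of member genes did (67.6%). The 34 windows belong to 21 genes, of which 18 held it, and some windows of the same gene overlap. Their GC content, 36.0% to 79.2%, was not matched to that of all windows. The E-box letters CAGGTG or CACCTG, known as a site of Snail and Zeb repressors, occurred in 0 of the 3 windows, in 17.2% of all windows and in 10 of 34 member windows. The Grainyhead letters AACCGGTT occurred in 0 member windows and in 0.116% of all. The table held 21 of the 31 genes, and those without an entry were Cldn8, Cldn23, Marveld3, Cdh1, Ctnna1, Dsg2, Dsc2, Pkp2, Pkp3 and Perp. A match describes letters in a window and not a binding site.

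Both polarity genes were lower with the inhibitor in each library, without passing the test. Pard3 encodes the scaffold of the Par complex that positions the tight junction. It had 2698 and 2441 normalised reads with DMSO and 2275 and 2184 with the inhibitor, a log2 fold change of -0.20 (interval -0.50 to 0.099, adjusted p = 0.573). Crb3, the Crumbs protein of the apical membrane, had 951 and 874 against 774 and 723, at -0.28 (interval -0.72 to 0.17, adjusted p = 0.601). After GC correction Pard3 had -0.12 and Crb3 -0.13. Among all tested genes 22.2% lay below DMSO without overlap, as these 2 did.

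The adherens junction genes had small negative values. Cdh1, E-cadherin (chromosome 8, 106603351 to 106670246, plus strand), had 43869.6 and 47179 normalised reads with DMSO and 40262 and 41500.5 with the inhibitor. Both inhibitor libraries lay below both DMSO libraries, and the means were 45524 ± 2340.2 and 40881 ± 876 (SD, n = 2 each). The log2 fold change was -0.15 ± 0.10 (SE), with an interval from -0.38 to 0.072 and an adjusted p of 0.563. As a ratio of inhibitor to DMSO, the interval ran from 0.768 to 1.05.

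Ctnnb1, β-catenin, which binds the tail of E-cadherin and also acts in Wnt signalling, had 51693 and 52099.6 against 48066 and 45539. It too lay lower without overlap, at -0.15 (interval -0.37 to 0.075, adjusted p = 0.578). Ctnna1, the α-catenin that couples the complex to actin, had 17470.2 and 18324 against 16507 and 17847, with overlap, at -0.060. Ctnnd1, p120-catenin, which keeps E-cadherin at the membrane, had 8779 and 9573 against 8496 and 8669, at -0.095. All 4 log2 fold changes were negative, with a median of -0.12, and all 4 intervals lay between -0.5 and 0.5. Within a library the ratio of Ctnnb1 to Cdh1 reads was 1.18 and 1.10 with DMSO and 1.19 and 1.10 with the inhibitor, with overlap. The ratio of Ctnna1 to Cdh1 was 0.398 and 0.388 against 0.410 and 0.430, and that of Ctnnd1 to Cdh1 0.200 and 0.203 against 0.211 and 0.209, both higher with the inhibitor without overlap. These ratios too were chosen after the values were seen and were not tested.

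**Figure D3:**
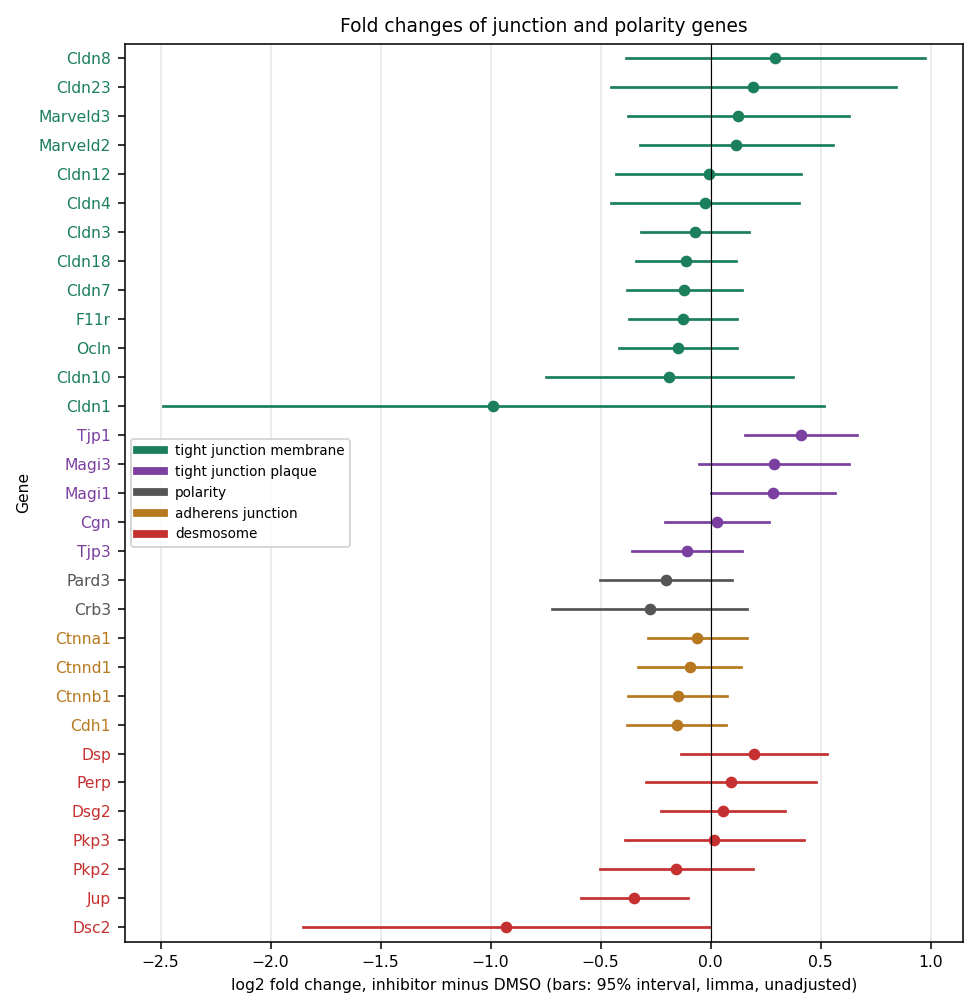
log2 fold change of each gene, inhibitor minus DMSO, with its unadjusted 95% interval from limma, grouped by class and ordered within it. The interval of Tjp1 lies above 0, that of Magi1 touches it, and those of Jup and Dsc2 lie below; all others span 0, and none of the 31 passed after adjustment over all genes.

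Desmosomes gave values in both directions. Jup encodes plakoglobin, which links desmosomal cadherins to desmoplakin and also occurs in adherens junctions (chromosome 11, 100368958 to 100397763, minus strand). It had 8585 and 9819 normalised reads with DMSO and 7223 and 7205 with the inhibitor. The inhibitor libraries nearly coincided and lay below both DMSO libraries. The means were 9202 ± 873 and 7214 ± 12.8 (SD, n = 2 each). The log2 fold change was -0.35 ± 0.11 (SE), 1.27-fold lower, with an interval from -0.59 to -0.10, and did not pass with limma (adjusted p = 0.169). It passed with DESeq2 (-0.35, adjusted p = 0.0325) and in limma without DMSO replicate 1 (-0.44, adjusted p = 0.0237). With edgeR it did not pass (-0.36, adjusted p = 0.264), and without DMSO replicate 2 the value was -0.25 (adjusted p = 0.274).

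Dsp, desmoplakin, which ties the desmosome to keratin filaments, depended on the DMSO libraries. It had 12924 and 8978 normalised reads with DMSO and 11314 and 13503 with the inhibitor, and DMSO replicate 2 was the lowest library. The log2 fold change was 0.20 ± 0.15 (SE, limma adjusted p = 0.620) with all libraries. It was 0.46 without DMSO replicate 1 (adjusted p = 0.0294) and -0.064 without DMSO replicate 2 (adjusted p = 0.843). The plot of fold changes with single libraries left out shows this spread beside that of Tjp1, which was narrow.

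**Figure D4:**
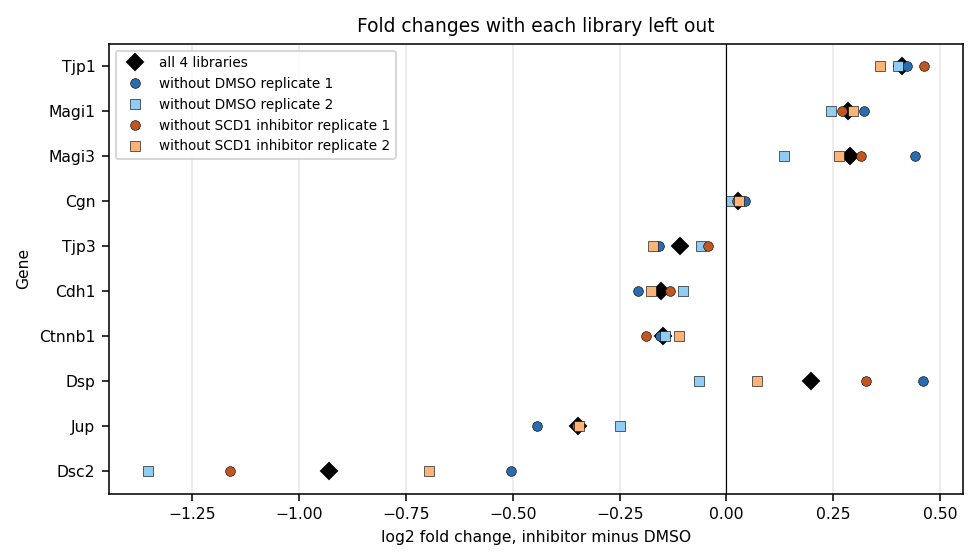
log2 fold change of 10 genes with all 4 libraries (diamonds) and with each library left out in turn (coloured points). Tjp1 stays between 0.36 and 0.46 and Jup between -0.44 and -0.25, whereas Dsp runs from -0.064 to 0.46 and Dsc2 from -1.35 to -0.50.

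The desmosomal cadherins differed from each other. Dsg2, desmoglein 2, the widely expressed cadherin of simple epithelia, had 3701 and 3734 with DMSO and 4223 and 3534 with the inhibitor, with overlap and a log2 fold change of 0.055 whose sign turned without SCD1 inhibitor replicate 1. An exon of Gm16090 on the other strand overlaps it. Dsc2, desmocollin 2, its partner, was sparse, with 355 and 185 against 149 and 101. Both inhibitor libraries lay below both DMSO libraries, and the log2 fold change was -0.93 ± 0.43 (SE, adjusted p = 0.352), with a wide interval from -1.85 to -0.0039.

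Of the plakophilins, which cluster desmosomal cadherins, Pkp2 had 1614 and 1616 with DMSO and 1536 and 1363 with the inhibitor, without overlap at -0.16 (interval -0.50 to 0.19). Pkp3 had 1043 and 1217 against 1245 and 1044 and a log2 fold change of 0.017. Perp, a membrane protein of desmosomes and a p53 target, had 2273 and 1875 against 1849 and 2620.5, with a high and a low library in each group. The sign of Pkp3 and Perp depended on the libraries used. Over the 7 desmosome genes the median was 0.017 (4 above 0, 3 below), and leaving out any single library made it negative (-0.11 to -0.064).

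Basal cells carry many desmosomes, and the summed level of their markers, given with Cldn1, was lower in both inhibitor libraries. All 7 tested basal markers had a negative log2 fold change, 5 of them without overlap, and 0 were called. Among all tested genes 22.2% lay lower without overlap and 0.428% were called lower. The pattern was not particular to basal markers. Lower without overlap were also 9 of 9 tested goblet, 9 of 10 club and 11 of 12 alveolar type 2 markers, beside 1 of 12 ciliated and 0 of 9 mesenchymal markers. Unlike the basal markers, 6 goblet, 5 club and 5 alveolar type 2 markers were called lower. Of the ciliated markers 1 was called higher and 0 lower, and of the mesenchymal markers 0 were called. Trp63, the defining factor of basal cells, overlapped, with 219 and 166 normalised reads with DMSO and 90.8 and 362 with the inhibitor, and so did Krt17. The basal keratin gene Krt15 had 2517 and 2162 normalised reads with DMSO and 407 and 1588 with the inhibitor. Summed basal markers were lowest in SCD1 inhibitor replicate 1 and Dsc2 in replicate 2. Goblet cell markers, summed over 9 genes, were lower too, at 80974 to 106532 with DMSO and 19181 to 37199.5 with the inhibitor. The part of basal, goblet, club or alveolar type 2 cells in the values of Dsc2 and Jup was not tested.

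The other genes of these junctions were read from 4 further lists with 89 symbols, of which 62 lay above the floor. Of these, 1 was called higher and 0 lower, where limma called 1.36% of all tested genes higher and 0.428% lower. The gene called was Erbin, a scaffold of the basolateral membrane that binds ErbB2. It belongs to the same protein family as the polarity protein Scribble. Erbin had 5438 and 3889 normalised reads with DMSO and 7777 and 8164 with the inhibitor. It rose, with both inhibitor libraries above both DMSO libraries. Its log2 fold change was 0.79 ± 0.15 (SE, 1.73-fold, limma adjusted p = 0.0184). The call ended with edgeR (0.76, adjusted p = 0.128), without the intensity trend (0.79, adjusted p = 0.455), without a floor (0.79, adjusted p = 0.0713), and when SCD1 inhibitor replicate 1 was left out (0.82, adjusted p = 0.281) or replicate 2 was (0.75, adjusted p = 0.504).

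Of 18 tested polarity genes outside the 31, 8 were positive and 10 negative. Dlg1 and Llgl1, of the basolateral Scribble group, are named after their values were seen. Dlg1 had 2076 and 2473 against 3130.3 and 3280.3, at 0.50 ± 0.14 (SE, adjusted p = 0.110). Llgl1 had 1836 and 1942 against 1236 and 1258, at -0.59 ± 0.16 (adjusted p = 0.0879). Members of 1 functional group thus had values on opposite sides of 0. Both passed with DESeq2 (adjusted p = 0.0475 and 0.0434), Dlg1 also without DMSO replicate 2 (0.62, adjusted p = 0.0260) and Llgl1 without DMSO replicate 1 (-0.63, adjusted p = 0.0434). After GC correction Dlg1 had 0.31 (adjusted p = 0.481) and Llgl1 -0.45 (adjusted p = 0.288).

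Of 18 tested further tight junction genes 0 were called. Cgnl1, or paracingulin, had 5355 and 4411 normalised reads with DMSO and 4179.5 and 3495 with the inhibitor, at -0.34 ± 0.14 (SE, adjusted p = 0.284). Its relative Cgn was nearly even, as given above. Cldn5, the claudin of endothelium, had 84.8 and 1091 against 248 and 432, with its highest value in the DMSO library that had the most endothelial marker reads. Cldn5 is itself among the 12 summed endothelial markers, so this match is partly built in.

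Of 22 further adherens junction genes 0 were called. Lmo7, which binds afadin and actinin, had 9843 and 9680.4 against 10409 and 12849.5 (log2 fold change 0.24, adjusted p = 0.390). Limd1, a LIM protein recruited to junctions under tension, had 4635 and 4256 against 3831 and 3654 (-0.25, adjusted p = 0.397). N-cadherin, Cdh2, was near 0 in all libraries, with at most 59.5 normalised reads.

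Of 12 further desmosome genes only 4 lay above the floor, and 0 were called. Dsg3 and Dsc1, cadherins of stratified epithelium, were at 0 reads in all 4 libraries, and Dsc3 had reads in DMSO replicate 2 alone, at 41.6. Pkp1, a plakophilin of stratified epithelium and basal cells, had 133 and 48.6 with DMSO and 0 and 24.1 with the inhibitor, at -1.59 ± 0.66 (SE, adjusted p = 0.296). With so few reads this value depended on the pseudocount, being -2.63 with a smaller and -0.72 with a larger one, and it was -2.91 in edgeR and -2.13 to -1.04 with single libraries left out. Evpl, envoplakin, had 1083 and 871 against 623 and 662, at -0.58 ± 0.22 (adjusted p = 0.241). Like Dsc2, both lay lower without overlap in the libraries with fewer basal marker reads, and the part of basal cells was not tested. Among all tested genes 22.2% lay lower without overlap.

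Regulators of the junction programme, transcription factors and the splicing regulators Esrp1 and Esrp2, were tested as a list of 21, of which 15 lay above the floor and 0 were called. Grhl2, an activator of Cdh1 and claudin genes, had 2933 and 2708 against 3370.2 and 3178 (log2 fold change 0.21, adjusted p = 0.506). Klf4, a factor of differentiated epithelium, had 1239 and 1091 against 535 and 747, at -0.85 ± 0.22 (SE, 1.80-fold lower, adjusted p = 0.0772), and passed with DESeq2 (-0.86, adjusted p = 0.0379). After GC correction it had -0.74 (adjusted p = 0.221). The repressors of E-cadherin were scarce: Snai1 had at most 12.4 and Snai2 at most 10.9 normalised reads, and Twist1 and Twist2 were at 0 reads in all 4 libraries. Zeb1 had 199 and 212 against 267 and 112, with overlap.

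Fold changes were related to transcript base composition across the whole table, and the members are set beside it here. Over 13633 tested genes with an annotated transcript, log2 fold change and GC content had a Spearman correlation of -0.378 across genes, which are not independent and share the same 4 libraries. The median log2 fold change was 0.26 in the quintile of lowest GC content and -0.14 in that of the highest. Over the 31 members the correlation was -0.13. Tjp1 has a GC content of 46.8%, in a quintile with a median of 0.086, and Jup one of 58.8%, in the quintile with a median of -0.14. Erbin has 39.6%, in the lowest quintile. After a smooth GC trend was removed from each library, an alternative added after the data were seen, 0 members were called. Tjp1 then had 0.33 (adjusted p = 0.289), Jup -0.20 (adjusted p = 0.525), Magi1 0.29, Magi3 0.23, Dsc2 -1.16 and Cdh1 -0.12. The value moved by over 1.5 times without turning sign in Ocln, Pard3 and Crb3, given above, in Jup, and in Cldn12 (-0.16), Cldn23 (0.31), Marveld3 (0.21), Cgn (0.14), Ctnnd1 (-0.14), Pkp3 (0.16) and Perp (0.044). The call of Erbin ended at 0.44 (adjusted p = 0.176). Transcript length was more weakly related, with a correlation of 0.102, and Tjp1, Magi1 and Magi3 all belong to the quintile of longest transcripts, with a median of 0.092.

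**Figure D5:**
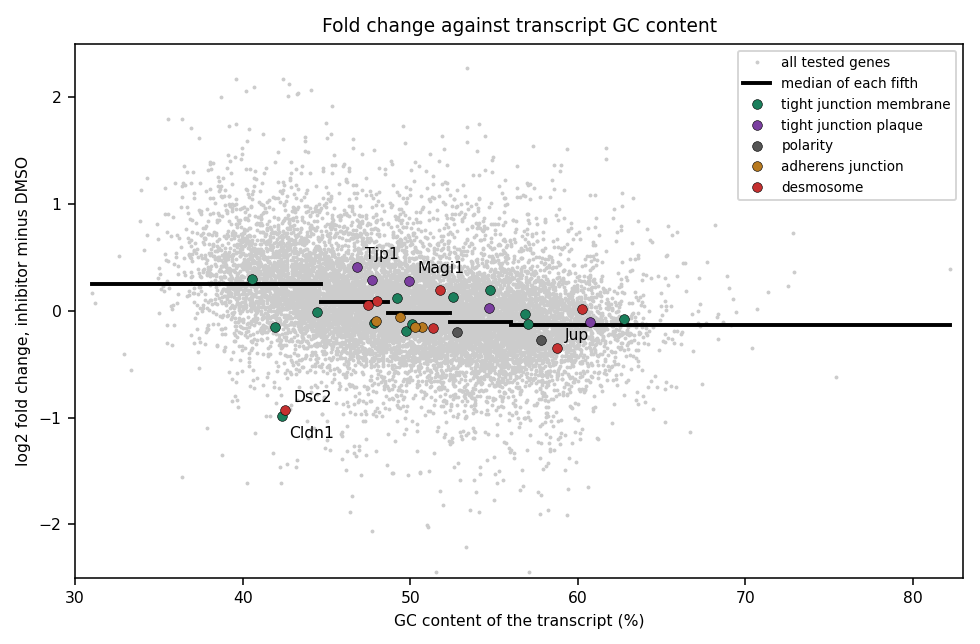
log2 fold change against GC content of the longest coding transcript for all tested genes (grey) and the 31 genes by class (coloured), with the median of each GC quintile as a black bar. The quintile medians run from 0.26 down to -0.14, Tjp1 and Magi1 lie above the bar of their quintile, and Jup, Dsc2 and Cldn1 below.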

How the data were processed

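RNA from sorted mouse airway epithelial cells was sequenced from 2 DMSO and 2 SCD1 inhibitor samples, all after HDM, with a directional library kit per the labels' protocols. The deposited values are a signal made by the authors, gene read counts divided by a size factor of each library. HOMER, DESeq2 and the build mm10 appear in the submitters' processing notes, without versions. The aligner is not given in the sources used here, nor is the strand setting. Dividing each library by its smallest value above 0 gave whole reads for 100% of values within 0.01. The totals were 24591122 to 27013663 reads, and counting error alone is 19.6% at the floor.

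Values were tested with limma 3.58.1 (R 4.3.3, intensity trend) on log2(value + 26.1). Genes with a mean of at least 26.1 normalised reads, which is 1 CPM at the mean library total, were kept (13800 of 25124). Adjusted p-values are Benjamini-Hochberg over those genes, with a threshold of 0.05, in every sentence that names no other tool. edgeR 4.0.16 and DESeq2 1.42.0 on the recovered reads, other floors, pseudocounts and scalings, left-out libraries and a GC correction were alternatives, and the limma, edgeR and DESeq2 fits, but not the GC correction, were tested on simulated data. Lengths and GC content came from the longest coding transcript of GENCODE M21. All 31 members are named, and of each further list the genes that passed or else those of the smallest p, 2 per list. One gene that this rule names is not reported here. Other genes were named after their values were seen. Members and lists were chosen with earlier results of these data known.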

Additional observations from a re-analysis of the deposited data

How the results depend on the processing

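The count over all genes (188 higher, 59 lower) was 50 and 13 with no floor, 0 and 0 without limma's intensity trend (1424 genes had an unadjusted p under 0.05 there), 7 and 3 with edgeR, 339 and 146 with DESeq2, and 50 and 19 after the GC correction, which was added after the data were seen. With single libraries left out it ran from 0 to 617 higher and from 5 to 181 lower. Same-numbered samples had a correlation of 0.0738 in their deviations over 2 pairs, so the numbers are not known to pair them. With a replicate block the count was 463 and 201, and 1 member, Tjp1, was called higher (adjusted p = 0.0365). The block also brought Dlg1, Llgl1 and Klf4 past the threshold (adjusted p = 0.0215, 0.0225 and 0.00744), and none of these 4 passed with the block and the GC correction together. With the block and the GC correction together it was 86 and 35, and 0 members were called. DESeq2 called 1 member higher and 1 lower, and with single libraries left out the number of members ran from 0 to 1 in each direction.

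Class medians moved to -0.019 for tight junction membrane proteins and -0.12 for polarity genes after GC correction, with or without the replicate block. With single libraries left out they ran from 0.14 to 0.32 for the tight junction plaque, from -0.16 to -0.067 for the adherens junction and from -0.11 to -0.064 for desmosomes. After GC correction, with or without the block, the sign turned in Cldn3 (0.057), Cldn4 (0.11), Cldn7 (0.019), Cldn8 (-0.019), Tjp3 (0.031) and Dsg2 (-0.0062). With single libraries left out it turned in Cldn3 (-0.17 to 0.024), Cldn4 (-0.21 to 0.16), Cldn8 (-0.17 to 0.76), Cldn10 (-0.53 to 0.15), Cldn12 (-0.24 to 0.23), Cldn23 (-0.084 to 0.47), Marveld2 (-0.13 to 0.36), Marveld3 (-0.051 to 0.30), Dsp (-0.064 to 0.46), Dsg2 (-0.072 to 0.18), Pkp3 (-0.11 to 0.14) and Perp (-0.16 to 0.34). Of 490 member values under 16 alternatives, 456 kept their direction and side of the threshold, 5 newly passed it and 29 turned sign, and 17 members never turned. The causes were not tested. A fit without 1 library assumes that the lone sample varies like the other group. At these depths Cldn1 and Dsc2 were the least precise.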
